A study of Saccharomyces cerevisiae with 4 samples.

Results

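The transcripts of 33 genes for RNA polymerases I, II and III were followed in Saccharomyces cerevisiae growing in standard or low phosphate. The set holds 7 subunits of polymerase I, 7 of polymerase II, 10 of polymerase III, 2 shared by polymerases I and III, 4 shared by all of them, the polymerase I initiation factor RRN3 and the TFIIIC subunits TFC1 and TFC3. A gene was a member when the platform symbol of a probe was its name, and 33 of the 33 genes had a probe, each 1 probe, among 6388 gene probes. All cells were of the haploid laboratory strain BY4742, whose mating type is alpha, and held the centromeric LEU2 plasmid YCpLac111. They went through 2 doublings in synthetic complete medium without phosphate of its own, and received phosphate at 10 mM, called standard phosphate here, or at 75 uM, called low phosphate. Every array compared a sample with the same reference, RNA of wild-type BY4742 for which no plasmid is named. Each group has 2 arrays, a and b: on a the sample carried Cy3 and the reference Cy5, and on b the dyes were exchanged, so that within a group culture and dye cannot be told apart. The submitters describe independent cultures and the study's methods describe dye-swapped biological replicates. If the arrays of a group share a culture, p-values measure technical spread only.

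The 3 nuclear RNA polymerases divide the work of transcription. Polymerase I makes the large ribosomal RNA precursor in the nucleolus, polymerase II makes messenger RNA, and polymerase III makes transfer RNA, the small 5S ribosomal RNA and other short RNAs. They are built on a common plan, with a pair of large subunits that form the active centre, a stalk, a pair of alpha-like assembly subunits and small subunits shared by all of them. In growing yeast most transcription by polymerases I and III serves the making of ribosomes and their transfer RNAs, and the genes for all these subunits are themselves transcribed by polymerase II.

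Values are log2 of sample over reference after normalization, so 0 means the level of the reference RNA, and a difference is the mean of the low phosphate arrays minus the mean of the standard phosphate arrays. The median sample signal of the arrays lay between 254 and 383 over a background of 41 to 49. The median reference signal was less even, from 131 on standard phosphate b to 703 on standard phosphate a, over a background of 38 to 57. All 33 members were above background in the sample channel on all 4 arrays and none was saturated. The reference channel was not checked in this way. The ratios spread more on low phosphate b, with an SD of 0.599 across probes, than on the other arrays, with 0.198 to 0.27. The 4 alpha-specific mating genes checked were above background on every array, and so were STE2 and ASG7 among 6 genes specific to mating type a. BAR1, MFA1 and STE6 of that list were above it on 3 arrays and MFA2 on 1. The background rule thus also passed genes specific to the other mating type. Of 18 PHO pathway genes, which the cell switches on when phosphate is scarce, 16 had a probe. All 16 were higher on both low phosphate arrays than on both standard phosphate arrays, against 26.5% of all probes, with a median difference of 1.62. At an unadjusted p under 0.05 (limma) 14 were higher, against 6.34% of all probes, and 0 had an adjusted p under 0.05 (limma, Benjamini-Hochberg). LEU2, carried by the plasmid, was at 2.61, 1.48, 0.57 and 1.09 on standard phosphate a and b and low phosphate a and b. Its sample signal was 316, 219, 82 and 136 in the same order. Of the other strain marker loci checked, HIS3 and LYS2 were above background on all 4 arrays, with sample signals of 205 to 312 and 79 to 126. URA3 was above background on 0 arrays.

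Subunit genes of polymerases I and III had lower mean ratios in low phosphate, by a median of -0.87 and -0.60, while those used by polymerase II alone had a median difference of -0.13. The difference was below 0 for 30 of the 33 members, with a median of -0.55, against a median of 0.00 over all probes. Both low phosphate arrays lay below both standard phosphate arrays for 23 members, or 69.7%, against 26.8% of all probes. They lay above for 1 member, RPB11, against 26.5% of all probes, and the groups overlapped for the other 9. Of the 23 subunits that are part of polymerase I or III, shared ones included, all 23 were lower in the mean and 20 did not overlap. No member passed an adjusted p of 0.05 (limma, Benjamini-Hochberg over 6388 probes), a threshold that 0.0157% of all probes passed, and the adjusted p of the members ran from 0.420 to 0.880. At an unadjusted p under 0.05, 4 members were lower (RRN3, RPA12, RPC37 and RPC25), which is 12.1% against 5.13% of all probes, and none was higher, against 6.34%. The 4 became 27 without low phosphate a, where 20.2% of all probes were lower by the same rule, and 9 without low phosphate b, where 6.57% were. They became 0 without standard phosphate a (0.751% of all probes) and without standard phosphate b (0.924%), and 20 with scaling between arrays (9.97%). An exact permutation of 2 arrays against 2 could not go below 0.333, two-sided. Equal amounts of labelled RNA were hybridized, so a change in total RNA per cell would not be seen. RNA came from whole cultures, so less transcript in each cell and a changed mix of cells cannot be told apart.

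**Figure D1:**
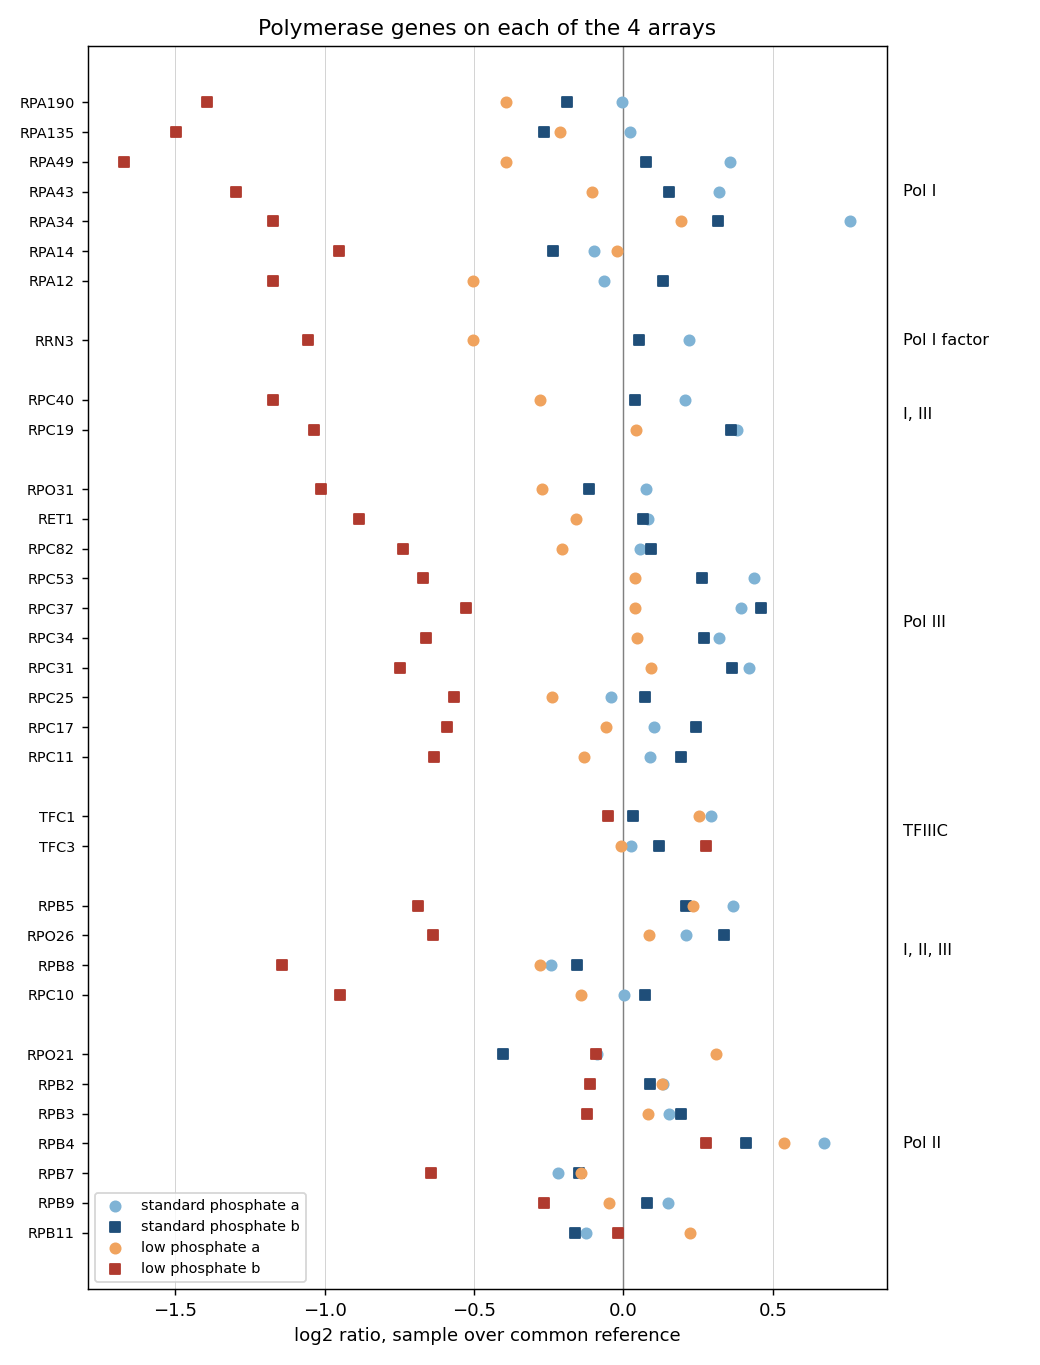
The log2 ratio of sample over common reference is plotted for the 33 polymerase genes on each of the 4 arrays, grouped by the polymerase they belong to. Polymerase I genes reach -1.67 on low phosphate b, while polymerase II genes on that array lie between -0.64 and 0.28.

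The size of the difference was unequal between the letters. On low phosphate b 32 of the 33 members were below low phosphate a, with a median gap of -0.71, while over all probes the median gap was 0.01. Within the a arrays the median difference of the members was -0.22 and within the b arrays -0.93. Still, 28 of the 33 members were lower in low phosphate within both letters, against 35.4% of all probes. The difference between the groups was larger than the gap between the low phosphate arrays for 8 of the 33 members, or 24.2%, against 41.4% of all probes. Across the 33 genes, which are not independent replicates, the differences within a and within b had a Pearson r of 0.82 and a Spearman rho of 0.80, against 0.69 and 0.61 across all probes. These values have no p because the genes share arrays. Without low phosphate a, 26 members passed the adjusted threshold (limma), as did 31.8% of all probes. That fit takes its spread from the standard phosphate arrays. Without any other single array 0 members passed.

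Ribosome biogenesis and stress genes were set beside the members. No gene of either list had an adjusted p under 0.05 (limma). At an unadjusted p under 0.05 (limma), 5 of 25 ribosome biogenesis genes were lower, against 5.13% of all probes. By the same rule 10 of 20 stress genes were higher, against 6.34%. The ribosome biogenesis genes had a median difference of -0.97, against -0.87 for the polymerase I subunits, and 24 of 25 were lower without overlap, against 26.8% of all probes. All 25 ribosome biogenesis genes on the marker list were lower in the mean, with per-array medians of 0.34, 0.06, -0.24 and -1.36 on standard phosphate a and b and low phosphate a and b. Their range on the standard arrays was -0.23 to 0.65 and on the low phosphate arrays -1.84 to 0.27. All 20 stress genes on the list were higher in the mean, with medians of -0.20, 0.32, 0.99 and 2.70 in the same order. Their range was -1.04 to 2.51 in standard and 0.27 to 4.16 in low phosphate, and HSP12 and DDR2 overlapped between the groups. The part of either program in the member values was not tested.

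The subunits of polymerase I had a median difference of -0.87, a level 1.83-fold lower in low phosphate. Lower in the mean were 7 of 7. Lower without overlap were 5 of 7 (71.4%), against 26.8% of all probes. RPA49 (YNL248C), which forms a TFIIF-like pair with RPA34 at the edge of the enzyme, measured 0.36 and 0.08 on standard phosphate a and b and -0.39 and -1.67 on low phosphate a and b. Its difference of -1.25 (SE 0.47, adjusted p 0.420, limma) put the low phosphate mean at 42.1% of the standard mean and at rank 29 from the lowest of 6388 probes. The groups did not overlap, yet low phosphate b lay farther from low phosphate a than the groups lay from each other.

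RPA34 (YJL148W), its partner, was at 0.76, 0.32, 0.19 and -1.17 in the same order, a difference of -1.03 (SE 0.52). It started above the reference in standard phosphate and on low phosphate a, and only low phosphate b was below it. RPA12 (YJR063W), the zinc ribbon subunit that takes part in RNA cleavage and termination, was at -0.06, 0.13, -0.50 and -1.17. Its difference of -0.87 (SE 0.26) had the lowest unadjusted p of the polymerase I subunits, 0.029, with an adjusted p of 0.420 (limma). Both low phosphate values were below both standard values, which lay on either side of the reference.

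RPA190 (YOR341W), the largest subunit and holder of much of the active site, measured 0.00 and -0.19 with standard phosphate, then -0.39 and -1.39 with low phosphate, a difference of -0.79 (SE 0.37). RPA43 (YOR340C), the stalk subunit that contacts the initiation factor Rrn3, measured 0.32, 0.15, -0.10 and -1.30, a difference of -0.94 (SE 0.44). Neither gene overlapped between the groups. With scaling between arrays RPA190 was at -0.48. The second largest subunit RPA135 (YPR010C) was at 0.02, -0.27, -0.21 and -1.50, so that low phosphate a lay between the standard arrays, and its difference of -0.73 (SE 0.47) was -0.36 with scaling. RPA14 (YDR156W), the smaller stalk subunit, differed least, at -0.10, -0.23, -0.02 and -0.95. It was higher on low phosphate a than on either standard array, and its difference was -0.32 (SE 0.34) with low phosphate b, 0.15 without it and -0.05 with scaling between arrays. The median of the polymerase I subunits was -0.34 without low phosphate b and -1.38 without low phosphate a.

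RRN3 (YKL125W), the factor that makes polymerase I competent to start at the ribosomal DNA promoter, had the lowest p of all 33 members. It was at 0.22 and 0.05 on standard phosphate a and b and at -0.50 and -1.06 on low phosphate a and b. The groups were 0.55 apart at their closest, more than for any other member, and the difference was -0.92 (SE 0.22, unadjusted p 0.015, adjusted p 0.420, limma). Within a the difference was -0.72 and within b -1.11.

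The other polymerase I factors showed smaller differences. Listed were 8 genes for the core factor, the upstream activating factor and the HMG protein HMO1. Of these, 7 (87.5%) were lower without overlap, against 26.8% of all probes. The median difference over the 8 was -0.20. RRN11, a core factor subunit, was lowest, at 0.41, 0.50, 0.03 and -0.43 and a difference of -0.66 (SE 0.19, unadjusted p 0.025). The upstream activating factor subunit UAF30 and the core factor subunit RRN6 both had a difference of -0.40, with unadjusted p of 0.0417 and 0.0495. All 3 had an adjusted p of 0.420 (limma). They are 37.5% of the list, against 5.13% of all probes lower at an unadjusted p under 0.05 (limma). HMO1, which binds the transcribed ribosomal DNA, was the highest of the 8, with a difference of 0.09. Its groups were 0.016 apart at their closest, so it was higher without overlap (12.5% of the list, against 26.5% of all probes). Sample signals were 209 to 346 for RRN11, 125 to 316 for UAF30, 135 to 167 for RRN6 and 1176 to 1786 for HMO1. The offset of 50 in the background correction draws ratios of dim probes toward 0. Its part in the smaller differences was not tested.

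The pair of subunits shared by polymerases I and III lay close to the polymerase I subunits. RPC40 (YPR110C), the larger alpha-like assembly subunit, measured 0.21 and 0.04 with standard phosphate, then -0.28 and -1.17 with low phosphate, a difference of -0.85 (SE 0.33). RPC19 (YNL113W), the smaller alpha-like subunit, measured 0.38, 0.36, 0.04 and -1.03, a difference of -0.87 (SE 0.39). The standard phosphate arrays for RPC19 were 0.02 apart and the low phosphate arrays 1.08 apart, and for neither gene did the groups overlap.

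The subunits of polymerase III were the most uniform of the larger lists. All 10 were lower without overlap, against 26.8% of all probes. Their differences spanned only -0.72 to -0.42, and the median was -0.60, or 1.51-fold lower. Among all 6388 probes these differences stood at percentiles 4.27 to 9.24 from the lowest. The median ratio of the 10 was 0.10 and 0.22 on standard phosphate a and b, -0.09 on low phosphate a and -0.67 on low phosphate b. Each of the 10 was lower within a, with a median of -0.27, and within b, with a median of -0.91. Of all probes, 35.4% were lower within both letters. The median difference was -0.26 without low phosphate b and -0.95 without low phosphate a.

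**Figure D2:**
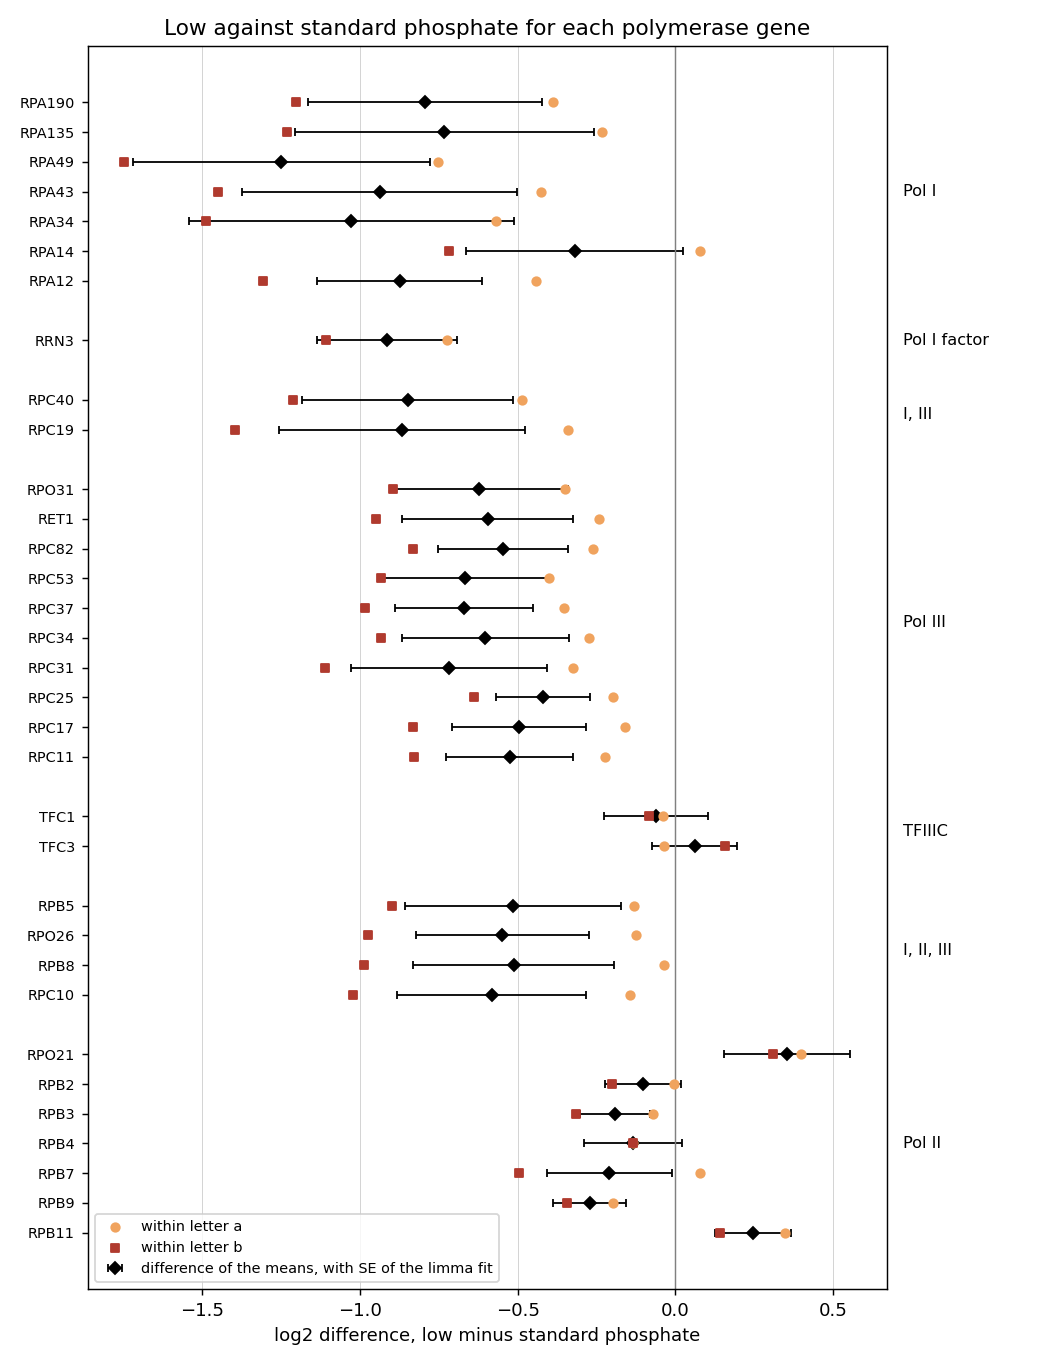
Points give the log2 difference, low minus standard phosphate, for each of the 33 genes within letter a and within letter b, and black diamonds give the difference of the means with the SE of the limma fit over 4 arrays. All 10 polymerase III subunits lie below 0 in both letters, while RPO21 and RPB11 of polymerase II lie above 0 in both.

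RPC37 (YKR025W), which pairs with RPC53 in a TFIIF-like module needed for termination, was at 0.39 and 0.46 with standard phosphate, then 0.04 and -0.53 with low phosphate. Its difference was -0.67 (SE 0.22, unadjusted p 0.038, adjusted p 0.420, limma). Low phosphate a was thus at the level of the reference, and the standard arrays were above it. RPC53 (YDL150W) had nearly the same difference, -0.67 (SE 0.27), with ratios of 0.44, 0.26, 0.04 and -0.67. RPC25 (YKL144C), the larger stalk subunit, had a difference of -0.42 (SE 0.15), with ratios of -0.04, 0.07, -0.24 and -0.57. Its sample signal was 108 to 203, and with a normexp offset of 0 in place of 50 the difference was -0.72. Its low phosphate arrays were 0.33 apart, and its unadjusted p was 0.049 with an adjusted p of 0.420 (limma).

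RPO31 (YOR116C), the largest subunit, measured 0.08, -0.12, -0.27 and -1.01, a difference of -0.62 (SE 0.28) that was -0.40 with scaling between arrays. RET1 (YOR207C), the second largest subunit, measured 0.08, 0.06, -0.16 and -0.88, a difference of -0.60 (SE 0.27). Both large subunits were below the reference on both low phosphate arrays. The initiation subunits RPC82 (YPR190C), RPC34 (YNR003C) and RPC31 (YNL151C), which form a trimer that meets the promoter factors, had differences of -0.55, -0.60 and -0.72. RPC31 was at 0.42 and 0.36 on the standard arrays and at 0.09 and -0.75 on low phosphate a and b. The smaller stalk subunit RPC17 (YJL011C) and the RNA cleavage subunit RPC11 (YDR045C) had differences of -0.50 and -0.53. Their low phosphate a ratios were -0.06 and -0.13, and their low phosphate b ratios -0.59 and -0.63.

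Promoter factors of polymerase III were measured beside its subunits. TFC1 (YBR123C) and TFC3 (YAL001C), subunits of TFIIIC, which recognises the internal promoters of transfer RNA genes, both overlapped between the groups. TFC1 was at 0.29, 0.03, 0.25 and -0.05, a difference of -0.06 (SE 0.17), and TFC3 at 0.03, 0.12, -0.01 and 0.28, a difference of 0.06 (SE 0.14). TFC3 was the 1 member with low phosphate b above low phosphate a. The sign of either gene turned under other processing, as the deposited log2 ratios gave 0.09 for TFC1 and -0.05 for TFC3. Of the 7 other polymerase III factors the median difference was -0.02, and the lowest was BRF1, a TFIIIB subunit, at -0.17 (SE 0.09). BRF1 and the TFIIIC subunit TFC6, at -0.12 (SE 0.09), were lower without overlap and 4 of the 7 overlapped. The share lower without overlap was 28.6%, against 26.8% of all probes. The highest was MAF1, the repressor of polymerase III, at -0.12 and -0.09 in standard and 0.33 and 0.97 in low phosphate, a difference of 0.75 (SE 0.24, unadjusted p 0.037, adjusted p 0.420, limma). MAF1 was higher on both low phosphate arrays, and like the subunits it stood farther from the standard arrays on low phosphate b.

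**Figure D3:**
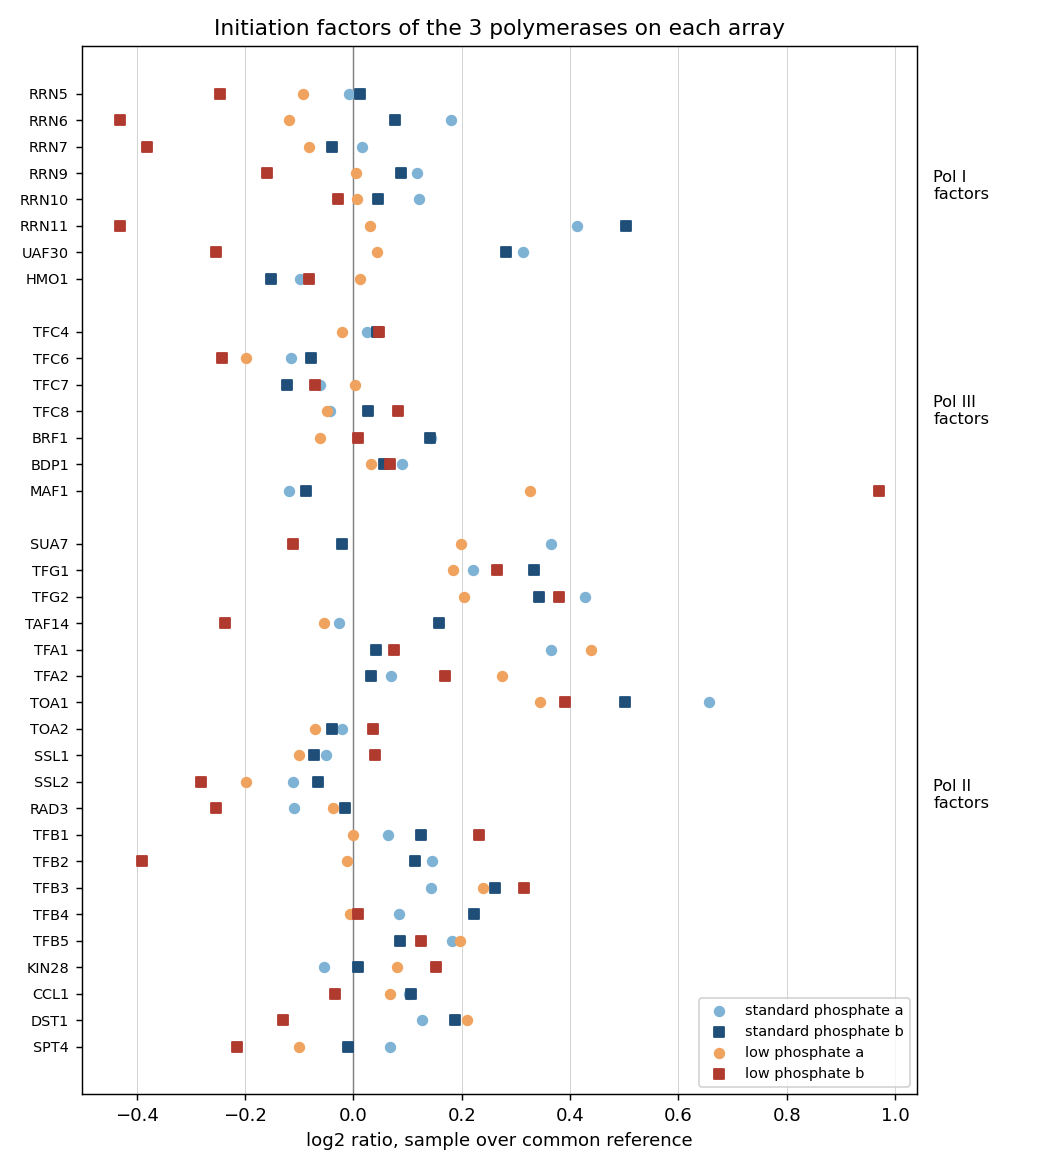
The log2 ratio of sample over common reference is shown on each of the 4 arrays for initiation and general factors of the 3 polymerases, none of which is among the 33 member genes. MAF1 is at 0.33 and 0.97 on low phosphate a and b, and RRN11 at 0.03 and -0.43.

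The 4 measured members that serve all the polymerases were lower, mainly on low phosphate b. Their median difference was -0.53, with differences between -0.58 and -0.51, but within a the median was -0.13 and within b -0.98. Without low phosphate b the median was -0.13, and without low phosphate a it was -0.96. RPC10 (YHR143W-A), the small zinc-binding subunit also called ABC10-alpha, measured 0.00, 0.07, -0.14 and -0.95, a difference of -0.58 (SE 0.30). RPO26 (YPR187W), a subunit needed for assembly, measured 0.21, 0.34, 0.09 and -0.64, a difference of -0.55 (SE 0.27). RPB8 (YOR224C) measured -0.24, -0.15, -0.28 and -1.14, a difference of -0.51 (SE 0.32), and its low phosphate a value lay 0.04 below the lower standard value. With scaling between arrays the difference of RPB8 was -0.25. RPB5 (YBR154C), which lines the entry of the DNA, measured 0.37, 0.21, 0.23 and -0.69, and overlapped. RPB10, the remaining subunit of this class and not a member, had a difference of -0.38 (SE 0.16) with ratios of 0.12, 0.23, -0.03 and -0.39.

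The subunits found only in polymerase II were spread around their standard phosphate level. Their median difference was -0.13, 5 of 7 were lower and 2 higher in the mean, and 4 of 7 overlapped. Lower without overlap were 2 of 7 (28.6%), against 26.8% of all probes, and higher 1 of 7 (14.3%), against 26.5%. No unadjusted p was under 0.05. RPO21 (YDL140C), the largest subunit, whose repeated tail carries the phosphorylation code of transcription, was at -0.09 and -0.40 on standard phosphate a and b and at 0.31 and -0.09 on low phosphate a and b. Its difference was 0.35 (SE 0.20, unadjusted p 0.152), 0.40 within a and 0.31 within b, and low phosphate b sat within 0.01 of standard phosphate a. RPB11 (YOL005C), the smaller alpha-like subunit, was at -0.12, -0.16, 0.22 and -0.02, a difference of 0.25 (SE 0.12, unadjusted p 0.112). Its groups did not overlap, and it was higher in low phosphate within both letters.

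RPB9 (YGL070C), the zinc ribbon subunit with a role in start site choice, had the lowest difference of the 7, -0.27 (SE 0.12), at 0.15, 0.08, -0.05 and -0.26. RPB3 (YIL021W), the larger alpha-like subunit, was at 0.15, 0.19, 0.08 and -0.12, a difference of -0.19 (SE 0.11). These were the members of the list that were lower without overlap. The second largest subunit RPB2 (YOR151C) was at 0.13, 0.09, 0.13 and -0.11, with both a arrays level. The stalk subunits RPB4 (YJL140W) and RPB7 (YDR404C) had differences of -0.13 (SE 0.16) and -0.21 (SE 0.20). RPB4 was at 0.67, 0.41, 0.54 and 0.28, above the reference on every array, and RPB7 at -0.22, -0.15, -0.14 and -0.64, below it on every array. Without low phosphate b the median of the 7 was 0.02 and without low phosphate a -0.26.

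**Figure D4:**
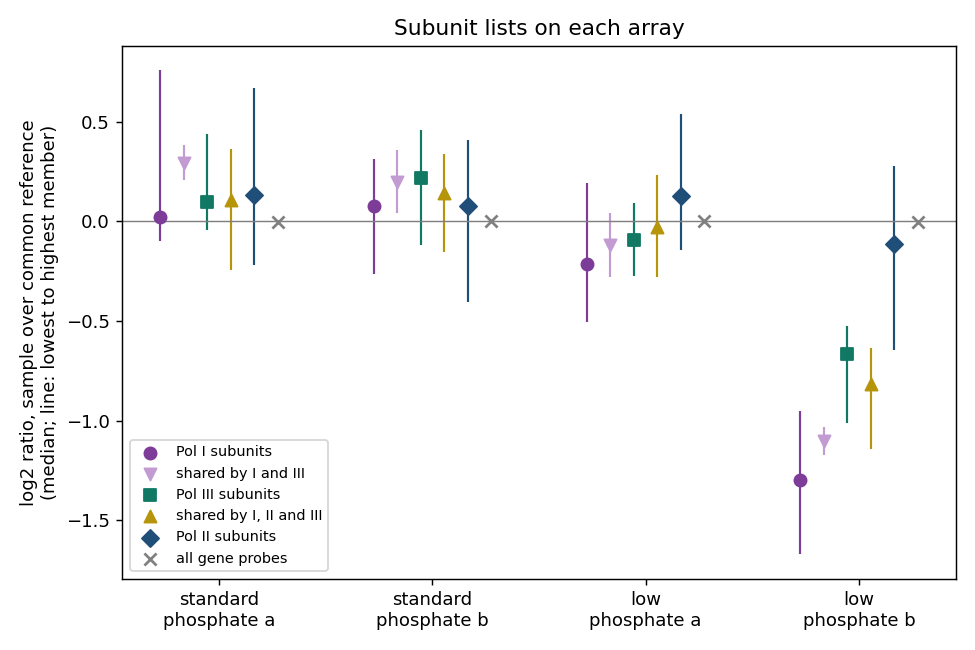
Medians of the log2 ratio of sample over common reference are plotted for 5 subunit lists and for all gene probes on each array, with lines from the lowest to the highest member. On low phosphate b the polymerase I median was -1.30 and the polymerase II median -0.11, while the median of all probes was 0.00.

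Set against the polymerase II subunits on the same array, the other lists lay lower on both low phosphate arrays. The median of the polymerase I subunits minus that of the polymerase II subunits was -0.11 and 0.00 on standard phosphate a and b, and -0.34 and -1.19 on low phosphate a and b. For the polymerase III subunits this gap was -0.04 and 0.14 in standard and -0.22 and -0.56 in low phosphate. For the subunits shared by all it was -0.03, 0.06, -0.16 and -0.71 in the same order. These gaps widen with the spread of the ratios on an array, which was largest on low phosphate b, and with 2 arrays a group they were not tested. Between the groups, the median difference of the polymerase I subunits minus that of the polymerase II subunits was -0.74, and -0.61 with scaling between arrays.

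Subunits that occupy the same position in each enzyme could be compared pairwise at 7 positions. The difference of the polymerase I subunit was below that of its polymerase II counterpart at 7 of 7 positions, and so was that of the polymerase III subunit. With scaling between arrays polymerase I was below at 6 of 7, as RPA14 then lay 0.19 above RPB4. Within b both held at 7 of 7. Within a the polymerase III subunit was lower at 7 of 7 positions and the polymerase I subunit at 6 of 7, the exception being RPA14, 0.21 above RPB4. The widest pairs were the largest subunits, where RPA190 was 1.15 log2 units and RPO31 0.98 log2 units below RPO21, and the smaller alpha-like subunits, where RPC19 was 1.11 log2 units below RPB11. RPC25 differed from RPB7 by -0.21, or by -0.52 with a normexp offset of 0. RPA14 differed from RPB4 by -0.18 and RPC11 from RPB9 by -0.25, and within a RPC11 differed from RPB9 by -0.02. Since RPC40 and RPC19 belong to both polymerases I and III, the alpha-like positions enter both counts with the same values.

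**Figure D5:**
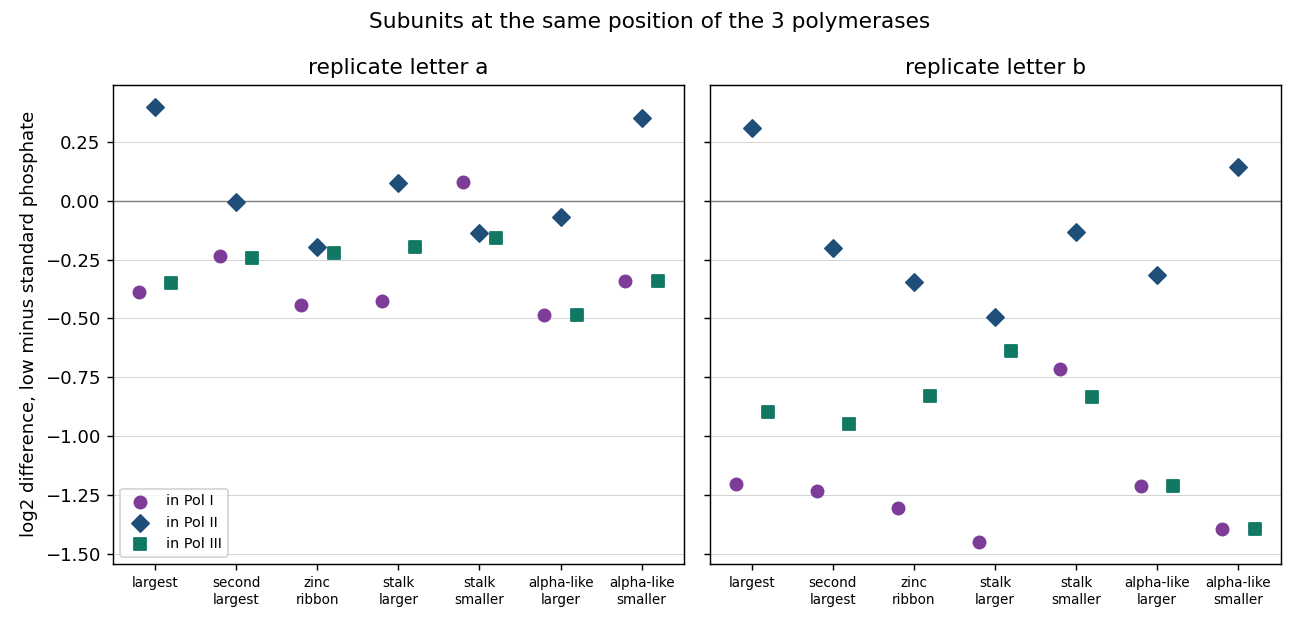
The log2 difference, low minus standard phosphate, is shown for subunits at 7 matching positions of the 3 polymerases, with letter a in the left panel and letter b in the right. Polymerase II subunits lie highest at every position within b, and within a at 6 of 7, the exception being the smaller stalk subunit.

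The general factors that work with polymerase II resembled its own subunits in range. Of 21 listed, 20 had a probe. Their median difference was -0.09, from -0.33 for TFB2, a TFIIH subunit, to 0.17 for TFA2, a TFIIE subunit, and 0 of 20 had an unadjusted p under 0.05. Of these, 7 (35%) were lower and 2 (10%) higher without overlap, against 26.8% and 26.5% of all probes. Of all probes, 5.13% were lower and 6.34% higher at an unadjusted p under 0.05 (limma). The TATA-binding protein SPT15, used by all the polymerases, was at -0.04, 0.20, -0.02 and -0.18, and overlapped.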

How the data were processed

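The arrays were spotted oligonucleotide arrays with a pair of colours. For every spot and channel, the deposited scanner output gives a mean intensity with its median local background, as the authors read them with an Agilent scanner and Imagene. Log2 ratios of single spots were also deposited, which the authors normalized by print-tip loess (span 0.4) without background subtraction and corrected for dye bias per gene. A final table with the authors' log2 values and p-values per condition, made with limma 2.12.0 per the labels, was not used.

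Here background was corrected by normexp (offset 50) and loess on gene spots was run for each array, with control spots at weight 0. Ratios were turned to sample over reference, and the 2 spots of a probe were averaged. With lmFit and eBayes of limma 3.58.1 (R 4.3.3), a mean per group was fitted over the 4 arrays and tested two-sided, with Benjamini-Hochberg adjustment over 6388 probes and a threshold of 0.05. The fit had 2 residual and 1.98 prior degrees of freedom. It was run on simulated data with changes of 2 and 4 log2 units, larger than any member difference. The simulation gave the spread of the standard phosphate arrays to all 4 arrays. It therefore does not cover the smaller member differences or the wider spread of low phosphate b. A probe was above background at 1.5 times the local background in the sample channel of both spots. The small number of arrays limits precision.

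Of the probes, 5326 have a gene symbol and 1062 are unnamed here. All members are named. Of the other pathway lists, the highest and lowest difference and genes with an unadjusted p under 0.05 could be named. LEU2, HIS3, LYS2, URA3, STE2, ASG7, BAR1, MFA1, STE6, MFA2, HSP12, DDR2 and TFC6 are named outside this rule, chosen after their values were seen. A gene with several probes was to be given by its brightest probe. The members and lists were chosen with earlier results of these data known. Without a matched probe, SPT5, GPN2, GPN3, PHO5 and PHO11 were not analysed here. A planned search for promoter motifs was not run. Alternatives changed the background correction, the normalization within and between arrays, the variance moderation, dim probes, the replicate block and single arrays, and used the deposited log2 ratios.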

Additional observations from a re-analysis of the deposited data

How the results depend on the processing

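The fits rest on 2 arrays a group, so 1 array can decide a count. The number of members lower at an unadjusted p under 0.05 was 4, and became 2 with median centring (1.55% of all probes), 20 with scaling between arrays (9.97%), 8 with the replicate letter as a replicate block (6.81%), and 0 to 27 when 1 array was left out (0.751% to 20.2%). The number with an adjusted p under 0.05 (limma) was 0, and 0 to 26 when 1 array was left out. The 26 came without low phosphate a, where the spread comes from the standard phosphate arrays alone and the lone array is taken to vary as they do, and where 2030 of all 6388 probes passed. Letters paired only 2 samples a group, and the correlation of their deviations was 0.28. Leaving out 1 array gave medians of -0.264 to 0.0178 for polymerase II, -0.95 to -0.26 for polymerase III and -0.96 to -0.13 for the subunits shared by all. With all arrays kept, scaling moved 9 of the 33 member differences by over 1.5 times, 8 of them toward or past 0, median centring 5, the deposited log2 ratios 4, print-tip loess and loess on spike-in spots 3 each, and an offset of 0 moved RPC25. Of 462 member values under the alternatives, 11 turned sign, in 6 members that all overlapped between the groups. TFC3 (0.06) was -0.0556 with print-tip loess, -0.0297 with scaling and -0.0478 with the deposited log2 ratios, and leaving out 1 array gave -0.0819 to 0.204. TFC1 (-0.06) was 0.0888 with the deposited log2 ratios and -0.213 to 0.0907 with 1 array left out. RPB4 (-0.13) was 0.113 with the deposited log2 ratios. With 1 array left out, RPA14 ranged from -0.784 to 0.146, RPB2 from -0.223 to 0.0178 and RPB7 from -0.460 to 0.0416, each highest without low phosphate b. The cause was not tested.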

Other observations

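Factors that help to assemble the polymerases were not members. Of 7 listed, 5 had a probe, with a median difference of -0.38. RBA50, which helps to assemble polymerase II, was at 0.27, 0.31, -0.05 and -0.49 on standard phosphate a and b and low phosphate a and b, a difference of -0.56 (SE 0.18, unadjusted p 0.035, adjusted p 0.420, limma). BUD27, a chaperone-like protein, had the lowest difference, -0.57 (SE 0.32), and IWR1, which carries polymerase II into the nucleus, the highest, 0.10 (SE 0.17). RBA50 and BUD27 were lower without overlap (40%, against 26.8% of all probes), and the other 3 overlapped.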
